A study of Mus musculus with 31 samples.

Results

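CD4+ cells of mice with a CD4-Cre-driven Vav1-Myo1f tumor were compared with those of control mice in 7 of the 31 libraries of the series. Markers of cells other than T cells were also counted in these libraries, as given below. The members are the CD4+ cell libraries of the CD4-Cre set, chosen by their tissue, status and genotype labels. The 4 tumor libraries, VM388, VM58, VM645-tumor and VM98, carry the genotype label CD4-CreVav1Myo1f fl/wt. The 3 control libraries, VM211, VM216 and VM645-WT, are normal cells labelled CD4-Cre(WT). All 7 libraries therefore came from mice with the Cre transgene, on a strain written C57B/6, and no age or treatment is given for them. Cre under control of Cd4 is switched on in the thymus before the CD4 and CD8 lineages part, so the allele is not limited to CD4+ cells. Each library is named for 1 mouse, and how the CD4+ cells were isolated is not stated. The number VM645 stands on a tumor and on a control library with different genotype labels, and they were counted as different mice. The whole spleens of 6 of these mice and CD4+ cells of the CD4-CreERT2 set, 2 controls labelled CD4-CreERT2 (WT) and 2 tumors labelled CD4-CreERT2Vav1Myo1f fl/wt, were used for comparison.

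Vav1, a guanine nucleotide exchange factor, couples the T cell receptor to the actin cytoskeleton and to calcium signals, while Myo1f is a class I myosin that is abundant in myeloid cells. Fusions that join Vav1 to a partner such as Myo1f occur in human peripheral T cell lymphoma, a group of cancers of mature T cells. A subset of these lymphomas expresses GATA3 and other genes of T helper 2 cells, which make the cytokines Il4, Il5 and Il13. Normal naive CD4+ T cells recirculate through lymphoid tissue with Ccr7 and Il7r on their surface. After activation they lose these receptors, divide and raise their uptake and use of glucose.

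The libraries held from 24480017 to 37568512 gene counts. Cd3e, a chain of the T cell receptor complex that marks T cells, stood at 377 to 415 CPM (counts per gene, scaled to the size of the library) in controls and 356 to 727 in tumors. VM98 stood apart from the other libraries. It had the fewest counts and yet 34546 genes with at least 1 count, against 23358 to 24573 in the controls and 21702 to 22369 in the other tumors. VM98 was set apart by this number, which is therefore a description with no test. In VM98, 7978 genes had counts that none of the other 6 libraries had, against at most 526 in any other library. These genes were 1845 protein coding genes, 2448 noncoding RNA genes, 2600 pseudogenes and others, with a median of 2 counts, and together took 0.140% of the counts of VM98. Reads outside genes were 23.7% of reads placed at a single position in VM98, 15.7% to 17.5% in the other tumors and 13.4% to 15.1% in controls, so every tumor library stood above every control. The part of this share in the results was not tested. Tests of tumor against control in these cells are therefore given with and without VM98. What made this library differ was not tested. By Xist and Ddx3y counts, VM211, VM216 and VM388 came from males and the other 4 libraries from females, though VM98 had 73 Ddx3y counts against 4 to 6 in the other females. Sex is unevenly spread over the groups.

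Neither gene of the fusion differed between the groups beyond the spread of the libraries. Vav1 (ENSMUSG00000034116; chromosome 17, 57279100 to 57328031, plus strand, GRCm38) stood at 305, 288 and 263 CPM in VM211, VM216 and VM645-WT. In the tumors it stood at 258 in VM388, 322 in VM58, 160 in VM645-tumor and 291 in VM98. The log2 fold change of Vav1 was -0.15 ± 0.24 (standard error, as for every fold change here), with adjusted p = 0.834, and -0.22 ± 0.26 without VM98 (adjusted p = 0.687). Myo1f (ENSMUSG00000024300; chromosome 17, 33555719 to 33607764, plus strand) stood at 459, 426 and 284 CPM in the controls and at 238, 457, 175 and 476 CPM in VM388, VM58, VM645-tumor and VM98. Its log2 fold change was -0.21 ± 0.38 (adjusted p = 0.846), and -0.43 ± 0.37 without VM98 (adjusted p = 0.566). VM645-tumor was the lowest library for both genes, and the ranges of tumor and control overlapped. Counts per gene do not tell a fused transcript from a normal one, nor the Myo1f of T cells from that of other cells.

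With all 7 libraries, 28 of 17841 genes passed at an adjusted p under 0.05, by edgeR's quasi-likelihood test with Benjamini-Hochberg adjustment over all genes tested. Of these, 3 genes rose (0.0168% of those tested) and 25 fell (0.14%), and 2699 genes had an unadjusted p under 0.05. Every one of the 28 separated the 4 tumor libraries from the 3 controls without overlap. The same libraries chose these genes, so the separation is a description. Across all genes tested, 1362 (7.63%) were above the controls in all tumor libraries and 1780 (9.98%) were below them. The calls rest on every control: 0 of the 28 were called without VM216 or without VM645-WT, 0 without both VM645 libraries, 5 without VM211, 10 without VM388, 15 without VM58 and 12 with a term for sex. All 28 kept their direction in each of these fits, but leaving out libraries could hardly change it where groups do not overlap.

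The gene that rose most was A430093F15Rik (ENSMUSG00000067577; chromosome 19, 10740947 to 10786043, plus strand), a gene model without an assigned name. It stood at 34.3, 30.7 and 33.2 CPM in VM211, VM216 and VM645-WT, and at 178, 161, 142 and 180 CPM in VM388, VM58, VM645-tumor and VM98. The 4 tumors lay close together, VM98 included, and the lowest of them was 142 CPM. The log2 fold change was 2.34 ± 0.16 (adjusted p = 0.00681), and 2.29 ± 0.16 without VM98 (adjusted p = 0.00404). In CD4-CreERT2 cells it stood at 46.5 and 42.6 CPM in the controls and at 186 and 61.1 CPM in the tumors.

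Cpd (ENSMUSG00000020841; chromosome 11, 76778424 to 76847018, minus strand) encodes carboxypeptidase D, a membrane enzyme of the Golgi that trims basic residues from peptides. Its level was 9.37, 9.94 and 11.1 CPM in the controls in the same order, and 38.3, 36.7, 28.8 and 31.4 CPM in VM388, VM58, VM645-tumor and VM98, a log2 fold change of 1.74 ± 0.20 (adjusted p = 0.0329), or 1.77 ± 0.21 without VM98 (adjusted p = 0.0180). H1f0 (ENSMUSG00000096210; chromosome 15, 79028212 to 79030498, plus strand) encodes the linker histone H1.0. It stood at 72.5, 79.2 and 78.1 CPM in the controls and at 214, 232, 280 and 172 CPM in the tumors, with VM98 the lowest of the 4. Its log2 fold change was 1.55 ± 0.19 (adjusted p = 0.0385), and 1.65 ± 0.16 without VM98 (adjusted p = 0.0118). Both genes were also positive in CD4-CreERT2 cells, at 0.83 for Cpd and 1.49 for H1f0, though neither passed there.

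Promoter windows of Cpd and H1f0 are shown with those of 2 T helper 2 genes, Il4 and Areg, as examples of genes that stood above every control in every tumor. Each is the 250 bases before the gene's start in RefSeq (GRCm38.p6), on the gene's strand. Capitals mark the core of sites bound by NFAT, a factor that the T cell receptor activates, with the letters GGAAA read on either strand. The Cpd window is chr11:76847009-76847258, minus strand, the H1f0 window chr15:79027962-79028211, plus strand, the Il4 window chr11:53618666-53618915, minus strand (1 of 2 listed for the gene), and the Areg window chr5:91139349-91139598, plus strand.
Cpd: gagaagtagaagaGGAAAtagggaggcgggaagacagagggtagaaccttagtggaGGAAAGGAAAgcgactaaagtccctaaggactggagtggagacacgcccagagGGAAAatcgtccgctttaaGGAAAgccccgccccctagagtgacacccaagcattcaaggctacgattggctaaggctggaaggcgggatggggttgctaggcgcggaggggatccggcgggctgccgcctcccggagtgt
H1f0: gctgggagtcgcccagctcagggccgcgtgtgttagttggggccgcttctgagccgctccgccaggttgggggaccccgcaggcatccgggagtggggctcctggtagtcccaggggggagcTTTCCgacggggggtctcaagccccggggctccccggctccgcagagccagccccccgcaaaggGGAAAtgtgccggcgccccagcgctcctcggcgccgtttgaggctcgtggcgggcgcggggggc
Il4: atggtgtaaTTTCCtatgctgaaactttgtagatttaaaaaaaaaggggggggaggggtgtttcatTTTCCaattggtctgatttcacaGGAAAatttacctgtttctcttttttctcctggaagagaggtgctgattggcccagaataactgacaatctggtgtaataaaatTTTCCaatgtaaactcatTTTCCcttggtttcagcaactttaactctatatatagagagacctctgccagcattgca
Areg: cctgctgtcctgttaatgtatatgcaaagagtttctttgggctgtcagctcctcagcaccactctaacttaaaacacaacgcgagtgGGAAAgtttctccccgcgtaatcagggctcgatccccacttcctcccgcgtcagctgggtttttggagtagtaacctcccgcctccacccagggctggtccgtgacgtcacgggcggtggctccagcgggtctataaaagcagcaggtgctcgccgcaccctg
The core occurred 5 times in the windows of Il4 and Cpd, 2 times in that of H1f0 and 1 time in that of Areg. Both strands of all windows were also searched for the GATA factor motif AGATAA. The AP-1 motif was searched as TGANTCA, and none of the 3 motifs can lie within another. Of 28 called genes, 23 had a window, and 13 of these held the NFAT core, 2 the GATA motif and 3 the AP-1 motif. Of 16 T helper 2 genes, 14 had a window, and 11 held the NFAT core, 4 the GATA motif and 2 the AP-1 motif. Among all 32851 windows in the table, 55.6% held the NFAT core, 9.99% the GATA motif and 6.75% the AP-1 motif. These matches describe the letters in a window and not binding.

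The 25 genes that fell included genes of macrophages and other myeloid cells. Slc40a1 (ENSMUSG00000025993; chromosome 1, 45908068 to 45926523, minus strand), ferroportin, the exporter by which macrophages release iron, was the most abundant of them in controls. It stood at 597, 896 and 1227 CPM in VM211, VM216 and VM645-WT and at 6.31, 17.9, 14.5 and 31.1 CPM in VM388, VM58, VM645-tumor and VM98. Its log2 fold change was -5.70 ± 0.56 (adjusted p = 0.0167), or -6.14 ± 0.52 without VM98 (adjusted p = 0.00832), and every control was at least an order of magnitude above every tumor. In the spleens of the control mice, which were scaled separately, it stood at 262, 555 and 273 CPM, below the level in their CD4+ cell libraries. Cd163, the macrophage receptor for haemoglobin bound to haptoglobin, stood at 50.1, 46.5 and 43.5 CPM in the controls and at 1.73, 2.0, 0.509 and 0.816 CPM in the tumors (log2 fold change -5.19 ± 0.48, adjusted p = 0.0138; -5.04 ± 0.50, adjusted p = 0.0118 without VM98).

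Fpr1 (ENSMUSG00000045551; chromosome 17, 17876471 to 17883940, minus strand), the receptor by which phagocytes sense bacterial formyl peptides, stood at 26.0, 26.6 and 47.1 CPM in the controls and at 3.29, 2.61, 1.53 and 1.72 CPM in VM388, VM58, VM645-tumor and VM98 (-3.86 ± 0.38, adjusted p = 0.0167; -3.75 ± 0.41, adjusted p = 0.0150 without VM98). Clec12a, an inhibitory lectin receptor of myeloid cells, stood at 62.9 to 95.2 CPM in controls and 3.67 to 12.4 in tumors. Sh2d1b1, an adaptor of SLAM family receptors in natural killer and myeloid cells, stood at 16.9 to 27.1 CPM and 1.05 to 3.05. Genes of lysosomes in this set were Creg1 (187 to 336 CPM in controls, 54.4 to 75.4 in tumors), Slc46a3 (96.1 to 136 and 14.4 to 28.5) and Cyb561a3 (164 to 199 and 58.7 to 83.7). All of these separated the groups, with VM98 on the side of the other tumors. They were called by a fit that counted VM98 as a tumor, so its place is a description.

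B cell genes among those that fell were Cr2 and Ighv1-84. Cr2 (ENSMUSG00000026616), the complement receptor CD21 of mature B cells, stood at 51.7, 66.6 and 76.0 CPM in VM211, VM216 and VM645-WT and at 0.897, 3.99, 2.40 and 4.71 CPM in VM388, VM58, VM645-tumor and VM98 (-4.43 ± 0.52, adjusted p = 0.0335; -4.74 ± 0.54, adjusted p = 0.0165 without VM98). Ighv1-84, an immunoglobulin heavy chain V segment, had 190, 407 and 1359 counts in the controls, 0 in VM388, VM58 and VM645-tumor and 2 in VM98, too few for a fold change. Neighbouring V segments are alike in sequence, so its count is uncertain.

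Genes of signalling pathways also fell. Txk (ENSMUSG00000054892; chromosome 5, 72695978 to 72752777, minus strand) encodes a Tec family kinase that acts below the T cell receptor. It stood at 94.7, 75.0 and 127 CPM in VM211, VM216 and VM645-WT and at 27.1, 24.4, 21.5 and 36.0 CPM in VM388, VM58, VM645-tumor and VM98. The log2 fold change was -1.86 ± 0.25 (adjusted p = 0.0426), and -2.03 ± 0.23 without VM98 (adjusted p = 0.0165). Rgs2, which damps signals of G protein coupled receptors, stood at 111 to 159 CPM in controls and 21.3 to 42.0 in tumors (-2.01 ± 0.25, adjusted p = 0.0385; -2.08 ± 0.28, adjusted p = 0.0215 without VM98). Atp8a1, a phospholipid flippase, stood at 91.5 to 125 CPM and 41.7 to 49.6.

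Ccnd1, cyclin D1, stood at 19.2, 43.8 and 20.8 CPM in the controls and at 3.74, 2.06, 1.45 and 1.13 CPM in VM388, VM58, VM645-tumor and VM98 (-3.73 ± 0.51, adjusted p = 0.0497; -3.54 ± 0.51, adjusted p = 0.0241 without VM98). It had the highest adjusted p of the 28. Mycl, a relative of Myc that dendritic cells express, stood at 9.29 to 23.0 CPM in controls and 0.218 to 0.860 in tumors. Agap1, a GTPase-activating protein for Arf, stood at 11.1 to 14.2 CPM and 0.680 to 1.76.

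The remaining genes that fell were Hs3st2, Vstm4, Kcnj10, Tnni2, Klk1, Smim5, Crip2, Xkrx and Rims3. Hs3st2, a heparan sulfate sulfotransferase, had 408, 531 and 405 counts in VM211, VM216 and VM645-WT, 1 count in VM58 and 0 in the other tumors. Kcnj10, an inward rectifier potassium channel, stood at 7.82, 12.4 and 15.6 CPM in the controls and at 0.179, 0.307, 0.182 and 0.0907 CPM in the tumors (-5.92 ± 0.51, adjusted p = 0.00985; -5.72 ± 0.48, adjusted p = 0.00832 without VM98). The others fell by between 2.56 for Rims3 and 6.85 for Vstm4 on the log2 scale, and by between 2.70 and 7.45 for the same genes without VM98.

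**Figure D1:**
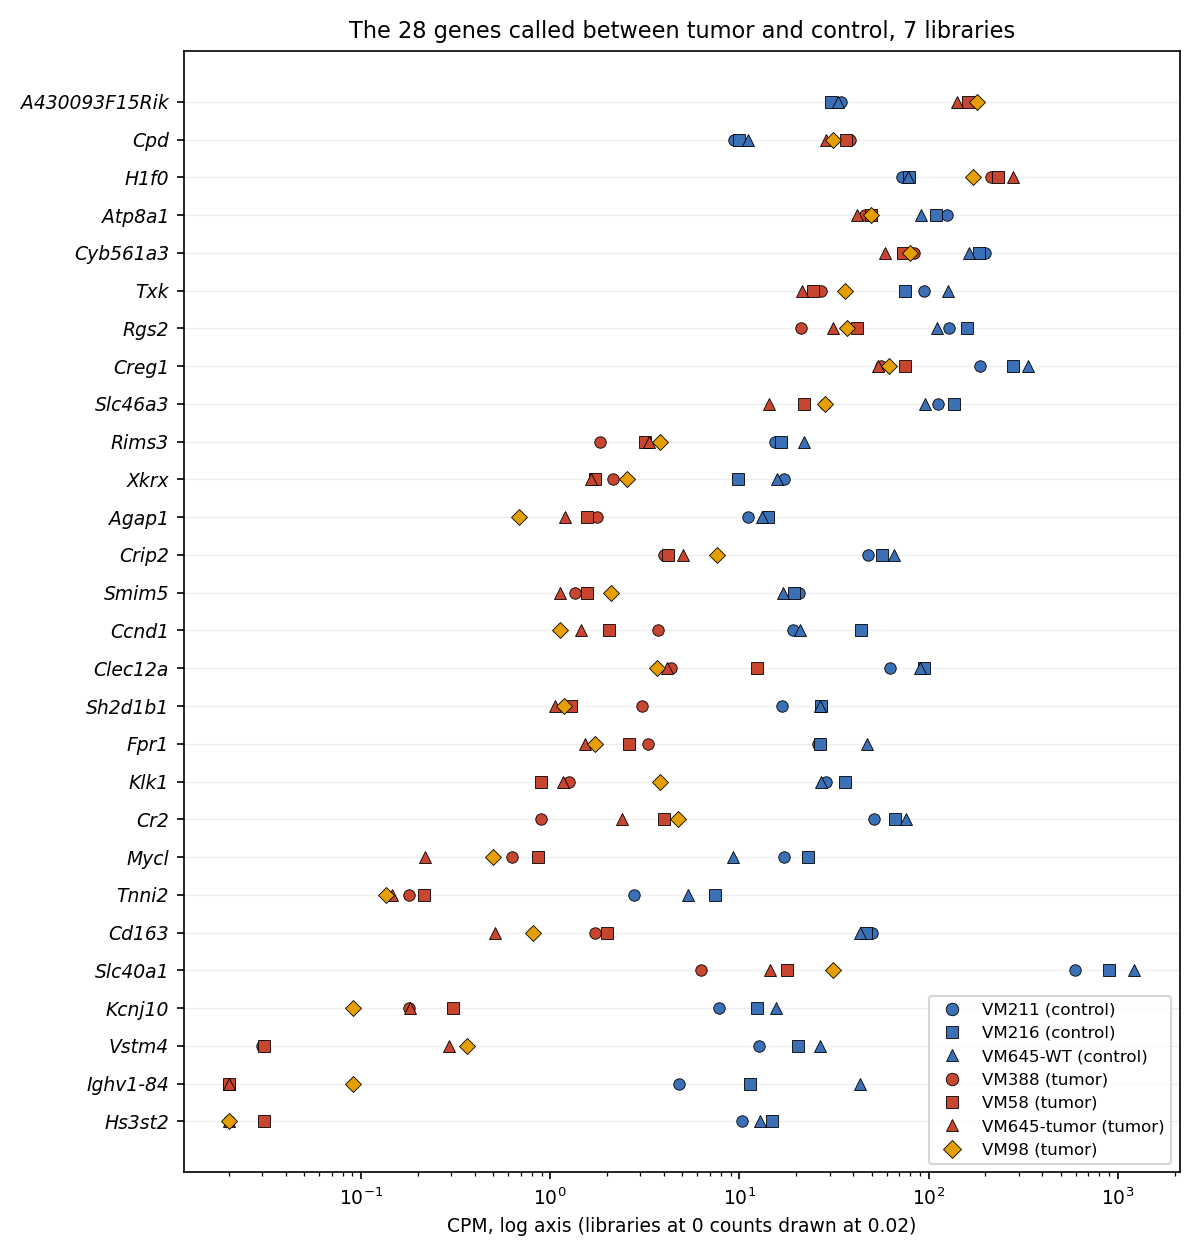
Level of each of the 28 genes that passed with 7 libraries, in CPM on a log axis, 1 point per library: controls blue, tumors red, tumor VM98 orange; libraries with 0 counts are drawn at 0.02. The groups do not overlap for any of the 28 genes, and Slc40a1 spans 597 to 1227 CPM in controls and 6.31 to 31.1 CPM in tumors.

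The CD4-CreERT2 set has its own mice and controls. All 3 genes that rose were positive there too, with a median of 1.47. Of the 25 that fell, 6 were negative there (24.0%) and the median was 0.68, above zero. Slc40a1 stood at 36.3 and 86.9 CPM in CD4-CreERT2 controls and at 248 and 1512 CPM in the tumors, the opposite order from the CD4-Cre cells. Fpr1 stood at 1.5 and 3.78 CPM in those controls and at 27.1 and 38.7 CPM in those tumors. Its tumor effect differed between the sets by -7.49 ± 0.74 on the log2 scale (adjusted p = 0.0189). The test of this difference over 19581 genes called Fpr1 as lower and 0 genes as higher by edgeR. An unadjusted p under 0.05 was reached by 1523 genes. By DESeq2, 42 were higher and 312 lower. Without VM98, edgeR called 5 lower and 0 higher. The Fpr1 difference had an adjusted p of 0.0606 to 0.241 when VM211, VM216, VM645-WT or either CD4-CreERT2 control was left out, and it stayed between -8.31 and -6.99.

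Leaving out VM98 raised the number of genes that passed to 579, of which 250 rose (1.44% of 17371 tested) and 329 fell (1.89%), with 3644 genes at an unadjusted p under 0.05. All 28 genes of the 7 libraries were among them, which is 4.84% of the 579. Without VM98, 2420 genes (13.9%) were above the controls in all 3 tumors and 2756 (15.9%) were below. These 579 calls rest on the remaining libraries too: without VM211, VM216 or VM645-WT as well, 6 to 10 genes rose and 20 to 31 fell, and without VM388 114 rose and 127 fell. A term for sex left 45 and 100. Of the 551 genes that passed only without VM98, VM98 lay beyond the controls on the side of the other tumors for 389, and within the control range or past it on the other side for 162. The same controls chose these genes, so both counts are a description. Immunoglobulin genes were 37 of the 329 that fell (11.2%) and 0 of the 250 that rose, against 185 of the 17371 genes tested (1.06%).

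Among genes with at least moderate levels, those that rose most without VM98 included Actg2, Krt83, Epas1 and Myo1d. Actg2, a smooth muscle actin, stood at 6.07, 11.2 and 5.85 CPM in VM211, VM216 and VM645-WT and at 208, 111, 695 and 85.8 CPM in VM388, VM58, VM645-tumor and VM98 (5.45 ± 0.78, adjusted p = 0.0240 without VM98; adjusted p = 0.0731 with it). Krt83, a hair keratin, stood at 4.34, 5.03 and 4.39 CPM in the controls and at 161, 136, 77.2 and 22.0 CPM in the tumors (4.76 ± 0.32, adjusted p = 0.00404; 0.0597 with VM98). Epas1, the hypoxia-inducible factor HIF-2α, stood at 5.38, 4.05 and 4.01 CPM and at 204, 46.0, 40.8 and 65.7 CPM (4.43 ± 0.70, adjusted p = 0.0309; 0.0647 with VM98). VM98 was above all controls for each of these genes.

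Myo1d, another class I myosin, stood at 3.53, 3.31 and 3.31 CPM in the controls and at 29.7, 32.1, 28.4 and 9.38 CPM in VM388, VM58, VM645-tumor and VM98 (3.15 ± 0.21, adjusted p = 0.00404 without VM98; 2.88 ± 0.45, adjusted p = 0.0648 with it). The secreted proteins Serpinf1 (3.35 ± 0.60; adjusted p = 0.109 with VM98) and Ccn4 (3.81 ± 0.74; 0.165 with VM98) rose as well. The most strongly lower genes included Ccr3, the eotaxin receptor, at 71.8, 108 and 162 CPM in the controls and 1.85, 1.35, 0.618 and 10.5 CPM in the tumors (-6.48 ± 0.53, adjusted p = 0.00807; -5.01 ± 0.95, adjusted p = 0.0847 with VM98), and Igfbp4, which binds insulin-like growth factors and marks naive CD4+ cells. Adgre4 (-4.45 ± 0.82; adjusted p = 0.0731 with VM98) and Cadm1 (-4.28 ± 0.70; 0.0847 with VM98) fell too.

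Levels of T cell and process genes were examined in lists, whose counts are descriptions beside those of all genes. Of 306 distinct genes tested in the T cell and process lists, edgeR called Txk and Ccnd1 with 7 libraries (0.654%, against 0.157% of all genes tested). Without VM98 it called 52 of 304 (17.1%, against 3.33% of all genes). An unadjusted p under 0.05 was reached by 119 with 7 libraries (38.9%, against 15.1%). DESeq2 called 66 (21.6%, against 6.28% of the same genes) and limma voom with library weights 61 (19.9%, against 4.64%). The lists were chosen with results of these data known. Over all genes tested, 7.63% lay above and 9.98% below the controls in every tumor with 7 libraries. Without VM98, 13.9% lay above and 15.9% below, and 1.44% were called higher and 1.89% lower. The counts of each list below stand beside these shares. All calls of the following lists other than Txk and Ccnd1 were made without VM98.

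Genes of T helper 2 cells were mostly positive. Of 15 tested with 7 libraries, 13 were positive and 2 negative. In all 4 tumors, 4 lay above the controls and 1 below. The median log2 fold change was 1.81, against 0.06 over all genes. Without VM98, 3 of 14 rose: Maf, Areg and Il10. Maf, a transcription factor that drives Il4 and Il10, stood at 117, 116 and 99.7 CPM in VM211, VM216 and VM645-WT and at 347, 305, 303 and 219 CPM in VM388, VM58, VM645-tumor and VM98. The groups did not overlap, and the log2 fold change was 1.41 ± 0.19 with 7 libraries (adjusted p = 0.0517) and 1.52 ± 0.15 without VM98 (adjusted p = 0.0119). Areg, amphiregulin, a growth factor that signals tissue repair, stood at 3.48, 1.60 and 4.26 CPM in the controls and at 26.1, 23.6, 24.0 and 6.75 CPM in the tumors (2.97 ± 0.39 without VM98, adjusted p = 0.0213; 0.101 with it).

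Il10, an inhibitory cytokine, stood at 11.1, 5.79 and 4.61 CPM in the controls and at 41.3, 64.1 and 45.2 CPM in VM388, VM58 and VM645-tumor, and at 9.07 CPM, within the control range, in VM98. It rose without VM98 by 2.80 ± 0.38 (adjusted p = 0.0215; 0.149 with it). Il4, the cytokine that defines T helper 2 cells, was above the controls in every tumor but did not pass. Its level was 8.43, 8.82 and 7.44 CPM in the controls and 118, 58.5, 17.1 and 43.1 CPM in VM388, VM58, VM645-tumor and VM98 (2.85 ± 0.60, adjusted p = 0.101; 2.96 ± 0.63, adjusted p = 0.0546 without VM98). The tumors spread over 17.1 to 118 CPM, and the controls over 7.44 to 8.82.

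Il13 had 0, 0 and 1 counts in VM211, VM216 and VM645-WT and 108, 45, 6 and 16 counts in VM388, VM58, VM645-tumor and VM98. Gata3, the master factor of this lineage, stood at 149, 112 and 117 CPM in the controls and at 346, 145, 235 and 255 CPM in the tumors (0.96 ± 0.29, adjusted p = 0.186; 0.153 without VM98). VM58 lay within the control range. Ccr8, a chemokine receptor of T helper 2 and regulatory T cells, stood at 37.3 to 43.6 CPM in the controls and at 145, 241, 1133 and 34.1 CPM in VM388, VM58, VM645-tumor and VM98.

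Genes of regulatory T cells were higher in VM388, VM58 and VM645-tumor than in VM98. Of 12 tested, 11 were positive with 7 libraries, with a median of 1.39. Of these, 5 lay above the controls in all tumors, against 7.63% of all genes. Without VM98, 5 of 12 rose, namely Ctla4, Lrrc32, Itgae, Ebi3 and Izumo1r. Ctla4, the inhibitory receptor for CD80 and CD86, stood at 150, 156 and 163 CPM in VM211, VM216 and VM645-WT and at 729, 448, 1377 and 189 CPM in VM388, VM58, VM645-tumor and VM98 (2.44 ± 0.40, adjusted p = 0.0332; 0.169 with VM98). Lrrc32, which displays latent TGF-β, stood at 24.7, 17.3 and 26.2 CPM and at 143, 131, 206 and 43.7 CPM (2.81 ± 0.26, adjusted p = 0.0107; 0.0879 with VM98). Foxp3, the factor that defines regulatory T cells, did not pass: it stood at 160, 175 and 156 CPM in the controls and at 294, 431, 731 and 211 CPM in the tumors (1.35 ± 0.40, adjusted p = 0.184; 0.0531 without VM98).

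Activation genes that rose without VM98 were Icos, Batf and Tfrc, 3 of 18. Icos, a costimulatory receptor, stood at 250, 269 and 291 CPM in the controls and at 1216, 862, 1274 and 368 CPM in VM388, VM58, VM645-tumor and VM98 (2.04 ± 0.21, adjusted p = 0.0130; 0.115 with VM98). Tnfrsf4, the costimulatory receptor OX40, stood at 376 to 387 CPM in the controls and at 1098, 1234, 4029 and 621 CPM in the tumors, and missed the threshold without VM98 (2.47 ± 0.52, adjusted p = 0.0538; 0.170 with it). Of 10 follicular helper genes, Pdcd1, Tox and Sh2d1a rose without VM98. Pdcd1, the inhibitory receptor PD-1, stood at 271, 336 and 308 CPM in the controls, at 861, 1087 and 1161 CPM in VM388, VM58 and VM645-tumor, and at 255 CPM, below every control, in VM98 (1.76 ± 0.20, adjusted p = 0.0156 without VM98; 0.206 with it).

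With 7 libraries, 14 of 21 genes of the T cell receptor pathway and T cell identity were positive and 7 negative. Their median was 0.265, against 0.06 over all genes. In every tumor 5 lay above and 3 below the controls, against 7.63% and 9.98% of all genes. Their summed level was 12914 to 14024 CPM in the tumors and 10610 to 11228 CPM in the controls. The part of this difference in the T cell genes that rose was not tested. Calls without VM98 went both ways. Zap70, the kinase bound by the receptor, and Cd5, a brake on its signal, rose, and Txk and Cd7 fell. Cd5 stood at 290, 267 and 290 CPM in VM211, VM216 and VM645-WT and at 715, 748, 443 and 719 CPM in VM388, VM58, VM645-tumor and VM98 (1.17 ± 0.23, adjusted p = 0.0458; 0.0795 with VM98). Cd7 stood at 46.6, 61.8 and 47.3 CPM and at 16.7, 17.6, 7.02 and 37.6 CPM (-1.92 ± 0.36, adjusted p = 0.0427; 0.223 with VM98). Cd4 itself stood at 808, 842 and 711 CPM in the controls and at 699, 710, 389 and 715 CPM in the tumors and did not pass (-0.33 ± 0.24, adjusted p = 0.581; 0.440 without VM98). Gzmb, granzyme B, was 1214 CPM in VM388, 364 in VM58, 38 in VM645-tumor and 163 in VM98, against 28 to 35.9 CPM in the controls. It did not pass (adjusted p = 0.171, or 0.0908 without VM98). Of 14 T helper 1 and cytotoxic genes tested with 7 libraries, 6 were positive and 8 negative, with a median of -0.33. In every tumor, 1 of them lay above the controls and 3 below, against 7.63% and 9.98% of all genes.

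Naive T cell genes were lower in the tumors. All 13 tested were negative with 7 libraries, with a median of -0.82. Of these, 6 lay below the controls in every tumor, against 9.98% of all genes. Without VM98, 6 fell: Ccr7, Il7r, Bach2, Igfbp4, Dapl1 and Ly6c1. Ccr7, the receptor that brings naive T cells into lymph nodes, stood at 256, 248 and 417 CPM in VM211, VM216 and VM645-WT and at 23.6, 17.8, 12.2 and 85.0 CPM in VM388, VM58, VM645-tumor and VM98 (-4.11 ± 0.34, adjusted p = 0.00832; 0.101 with VM98). Bach2, a repressor that keeps T cells quiescent, stood at 22.8, 18.4 and 29.6 CPM and at 6.90, 3.66, 3.71 and 5.76 CPM (-2.31 ± 0.36, adjusted p = 0.0295; 0.0582 with VM98). Il7r, the interleukin 7 receptor, stood at 361, 359 and 401 CPM in the controls and at 196, 168 and 234 CPM in VM388, VM58 and VM645-tumor. In VM98 it stood at 685 CPM, above every control. Its log2 fold change was -0.91 ± 0.18 without VM98 (adjusted p = 0.0439), and the adjusted p was 0.876 with VM98. Without VM98, 9 of the 13 genes lay below the controls in every tumor. Summed over the list, VM98 stood at 2482.6 CPM, within the control range of 2244.8 to 3671.5, and the other tumors at 739.57 to 1660.1.

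**Figure D2:**
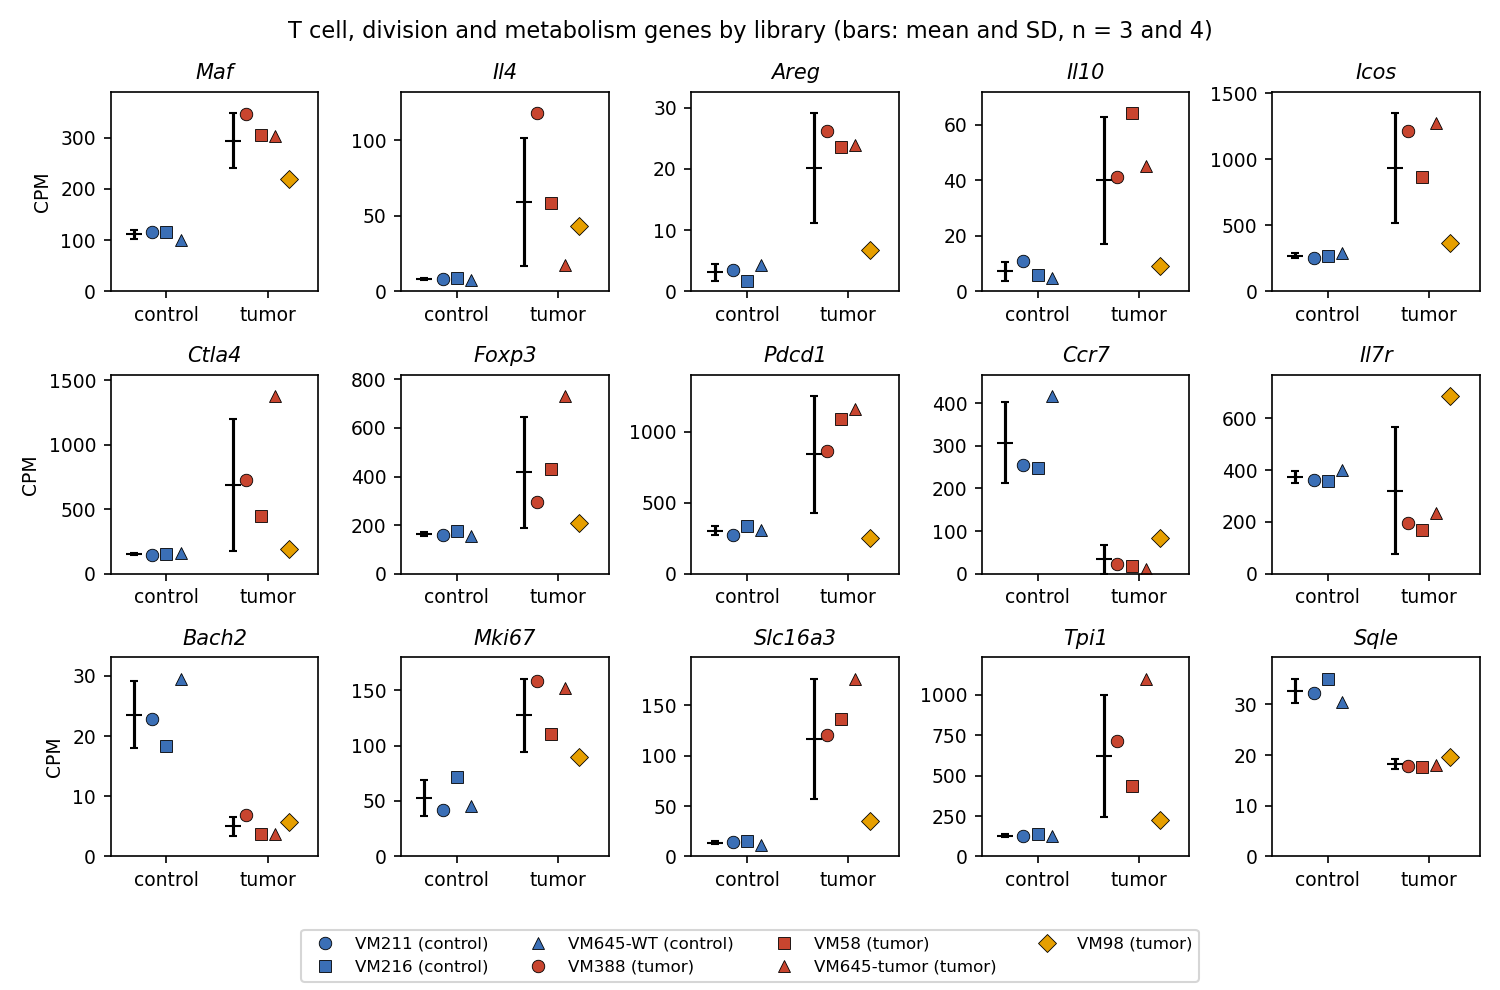
CPM of 15 genes of T cell states, division and metabolism, 1 point per library (controls blue, tumors red, VM98 orange), with the mean and SD of the 3 controls and the 4 tumors as black bars. VM98 lies near the controls for Il10, Icos, Ctla4 and Pdcd1 and with the other tumors for Bach2 and Sqle; its Il7r is the highest of all libraries at 685 CPM.

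Genes of cell division were higher. All 20 tested were positive with 7 libraries, with a median of 1.24. Of these, 9 lay above the controls in every tumor, against 7.63% of all genes. Without VM98 19 did, against 13.9% of all genes, and Mki67, Tpx2, Plk1, Cdc20 and Prc1 rose. Mki67 (ENSMUSG00000031004; chromosome 7, 135689784 to 135716361, minus strand), a nuclear protein found in cells that cycle, stood at 41.5, 71.6 and 45.7 CPM in VM211, VM216 and VM645-WT and at 158, 110, 152 and 89.4 CPM in VM388, VM58, VM645-tumor and VM98 (1.4 ± 0.26, adjusted p = 0.0423; 1.26 ± 0.28, adjusted p = 0.109 with VM98). Cdc20, an activator of the anaphase-promoting complex, stood at 24.8, 38.7 and 32 CPM and at 89.4, 72.8, 105 and 70.2 CPM (1.48 ± 0.23, adjusted p = 0.0295; 0.0683 with VM98). Of 16 DNA replication genes, the thymidylate synthase gene Tyms rose without VM98 (1.52 ± 0.29; adjusted p = 0.216 with it). Among cyclin D partners and inhibitors, Cdk6 (1.89 ± 0.25), Cdkn2c (1.0 ± 0.19) and Cdkn1a (1.77 ± 0.32) rose without VM98, and Ccnd1 fell with and without it. With VM98 the adjusted p was 0.122 for Cdk6, 0.144 for Cdkn2c and 0.390 for Cdkn1a. Cdk6 stood at 55.6 to 62.2 CPM in the controls and at 190, 165, 306 and 85.0 CPM in the tumors.

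Glycolysis genes were the list with the most calls without VM98 among the process lists, with 10 of 16 higher. They were Slc2a1, Pfkl, Pfkp, Aldoa, Tpi1, Gapdh, Pgk1, Pgam1, Pkm and Slc16a3. With 7 libraries 13 of 16 lay above the controls in every tumor, against 7.63% of all genes, with a median of 1.08. Slc16a3, the exporter of lactate, stood at 14.3, 15.1 and 11.7 CPM in VM211, VM216 and VM645-WT and at 121, 136, 176 and 34.8 CPM in VM388, VM58, VM645-tumor and VM98 (3.39 ± 0.22, adjusted p = 0.00404; 3.09 ± 0.52, adjusted p = 0.0731 with VM98). Tpi1, triosephosphate isomerase, stood at 124, 139 and 125 CPM and at 713, 438, 1101 and 227 CPM (2.54 ± 0.34, adjusted p = 0.0215; 0.109 with VM98). Slc2a1, the main glucose transporter, stood at 45.0 to 54.2 CPM in the controls and at 131, 90.8, 113 and 66.9 CPM in the tumors (1.13 ± 0.19, adjusted p = 0.0330; 0.135 with VM98). VM98 lay between the controls and the other tumors for these 3 genes. Ldha, lactate dehydrogenase, did not pass with or without VM98 (adjusted p = 0.315 and 0.165).

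Cholesterol genes were lower by a similar amount in all 4 tumors. All 12 tested were negative, with a median of -0.55, and 6 lay below the controls in every tumor, against 9.98% of all genes. Hmgcs1 and Sqle, enzymes of cholesterol synthesis, fell without VM98, by 0.93 and 0.88 on the log2 scale (adjusted p = 0.0795 and 0.0879 with it). Sqle stood at 30.6 to 35.1 CPM in the controls and at 17.7 to 19.6 CPM in the 4 tumors, VM98 included.

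**Figure D3:**
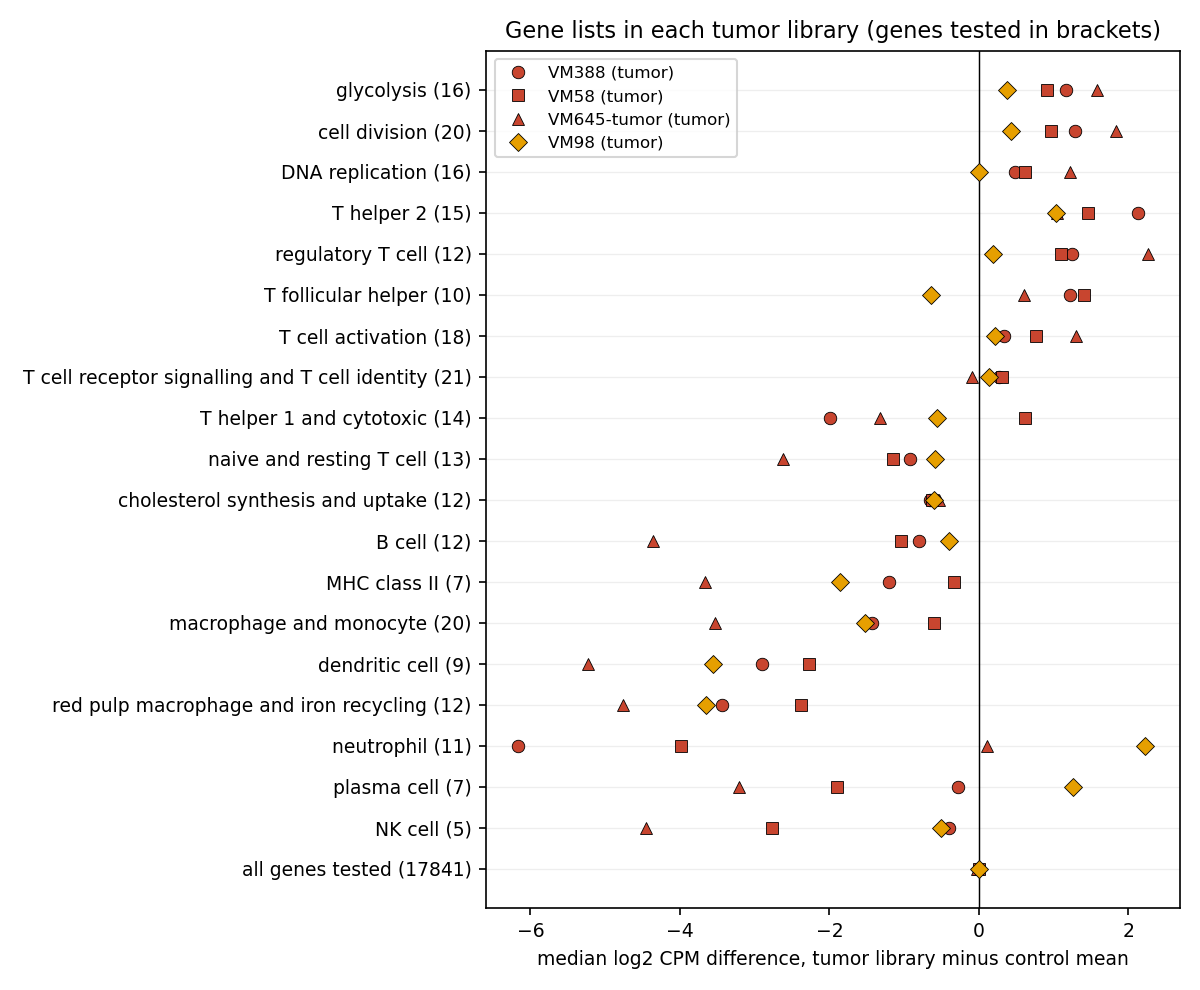
Median over the tested genes of each list of the log2 CPM difference between 1 tumor library and the mean of the 3 controls; red symbols are VM388, VM58 and VM645-tumor, the orange diamond is VM98, and the number tested is in brackets. VM98 lies nearer to 0 than the other tumors for glycolysis, cell division and regulatory T cell genes, and among them for cholesterol genes.

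Markers of other cells moved with the groups. In bulk libraries fewer cells of a type and less RNA per cell cannot be told apart. Genes of red pulp macrophages, the splenic cells that clear old red cells and recycle their iron, were negative for 12 of 12. The median was -3.23, and 11 lay below the controls in every tumor, against 9.98% of all genes. Slc40a1 and Cd163 fell with 7 libraries. Without VM98, Spic, Hmox1, Vcam1, Adgre1 and Hpgd fell as well, 7 of 12. Spic, the transcription factor of these macrophages, stood at 189, 185 and 278 CPM in VM211, VM216 and VM645-WT and at 19.6, 34.7, 6.04 and 16.5 CPM in VM388, VM58, VM645-tumor and VM98 (-3.44 ± 0.60, adjusted p = 0.0359; 0.0582 with VM98). Vcam1, an adhesion molecule they carry, stood at 593, 997 and 1230 CPM and at 47.5, 168, 27.2 and 28.7 CPM (-3.54 ± 0.72, adjusted p = 0.0483; 0.0847 with VM98).

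The summed level of the 12 red pulp genes was 3440, 4980 and 5948 CPM in the CD4+ libraries of VM211, VM216 and VM645-WT. It was 1075, 1370, 761 and 722 CPM in VM388, VM58, VM645-tumor and VM98. Whole spleens of the same controls held 2665, 4316 and 2819 CPM, less than the CD4+ cell library of the same mouse in all 3. In CD4-CreERT2 cells the order was the other way, with 1721 and 2185 CPM in controls and 3706 and 7129 CPM in tumors. The part of such cells in the genes that fell was not tested.

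Dendritic cell genes stood at 421 to 635 CPM summed in controls and 30.9 to 146 in tumors. Below the controls in every tumor lay 7 of 9, against 9.98% of all genes. Siglech and Cd300c fell without VM98. Siglech, a receptor of plasmacytoid dendritic cells, stood at 166, 152 and 144 CPM in VM211, VM216 and VM645-WT and at 12.2, 19.5, 4.04 and 42.1 CPM in VM388, VM58, VM645-tumor and VM98 (-3.70 ± 0.53, adjusted p = 0.0241; 0.105 with VM98). The 20 macrophage and monocyte genes summed to 5677 to 7925 CPM in controls and to 1015 to 5673 CPM in tumors, and the ranges nearly met at VM58. Cd14 and Ly6c2 fell without VM98, and Clec12a with and without it. B cell genes summed to 1087 to 1727 CPM in controls and to 722, 803, 78.1 and 1114 CPM in VM388, VM58, VM645-tumor and VM98. MHC class II genes summed to 9081 to 14274 CPM in controls and to 1226 to 7763 CPM in tumors. Of 7 tested, 4 lay below the controls in every tumor, against 9.98% of all genes. Cd8a stood at 11.4 to 14.7 CPM in controls and 0.836 to 7.03 in tumors, low in all 7 libraries.

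The macrophage and monocyte list was negative for 18 of 20, and 2 related lists differed among the tumors. Genes of alternatively activated macrophages were positive for 7 of 9 with 7 libraries, with a median of 1.14. Against the control mean, their median was 1.76 in VM388, 1.55 in VM58, -0.89 in VM645-tumor and -1.33 in VM98. Chemokines and growth factors that attract monocytes were positive for 8 of 9, with a median of 1.74. Their medians in the same tumors were 1.81, 3.51, -0.20 and 1.65. Above the controls in every tumor lay 1 gene of the first list and 2 of the second, against 7.63% of all genes. Below them in every tumor lay 1 of the first and 0 of the second, against 9.98% of all genes. In these lists, Arg1, Ccl24 and Ccl12 rose without VM98. Arg1, arginase 1, stood at 1.57, 0.899 and 2.32 CPM in the controls and at 48.1, 110, 5.96 and 5.17 CPM in VM388, VM58, VM645-tumor and VM98 (5.08 ± 1.03, adjusted p = 0.0483 without VM98; 0.149 with it). Ccl24, the chemokine eotaxin-2, stood at 1.57, 2.05 and 5.69 CPM and at 66.2, 83.0, 15.1 and 3.9 CPM (4.13 ± 0.78, adjusted p = 0.0429 without VM98; 0.174 with it). Ccl12, which attracts monocytes, had a log2 fold change of 5.92 ± 1.08 without VM98 (adjusted p = 0.0389; 0.111 with it). VM388 and VM58 were the high libraries for Arg1 and Ccl24.

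Neutrophil and plasma cell genes varied within both groups. The 11 neutrophil genes summed to 240, 1097 and 427 CPM in the controls and to 17.1, 66, 590 and 2194 CPM in VM388, VM58, VM645-tumor and VM98. The 7 plasma cell genes summed to 1789, 2574 and 8298 CPM in the controls and to 984, 384, 555 and 8205 CPM in the tumors. VM98 was the highest tumor library for both. Stress genes that culture or dissociation can raise, Fos, Hspa1a and Hspa1b, fell without VM98.

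**Figure D4:**
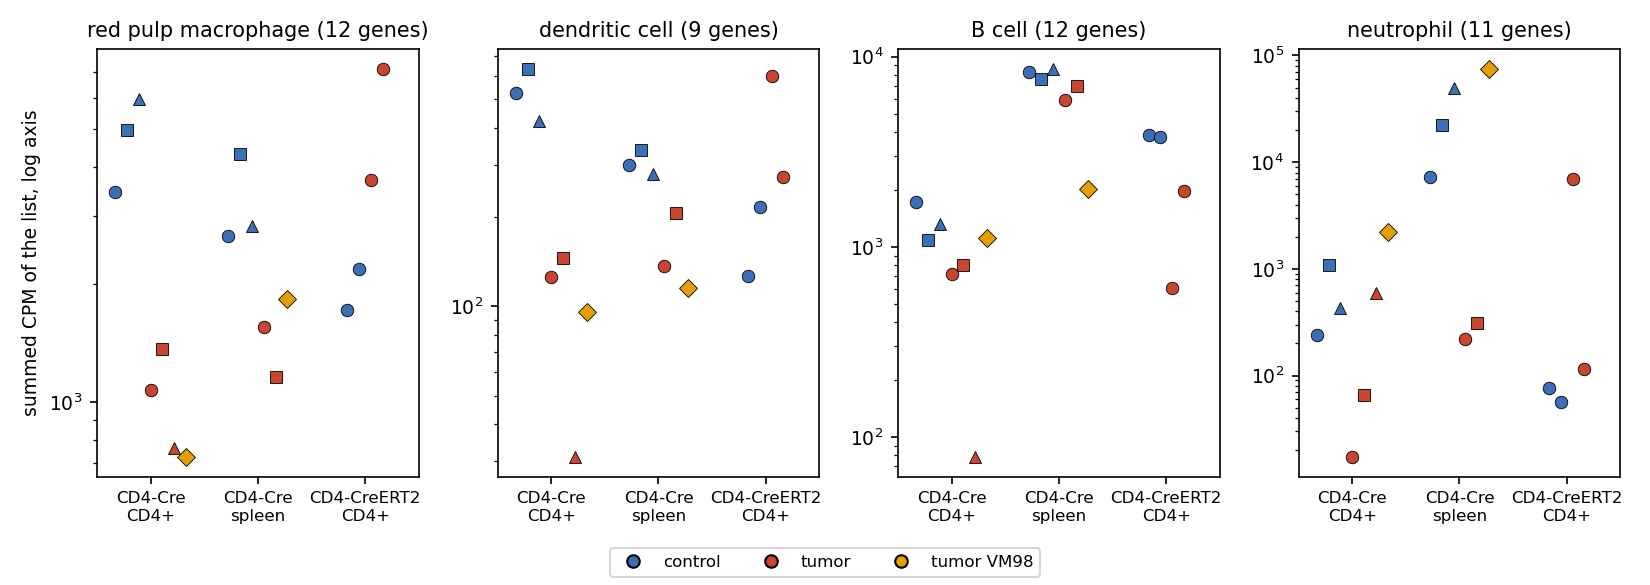
Summed CPM of 4 lists of markers of other cells on a log axis, 1 point per library, in CD4+ cells and whole spleen of the CD4-Cre set and in CD4+ cells of the CD4-CreERT2 set (controls blue, tumors red, VM98 orange). Red pulp macrophage genes are lower in tumor than in control CD4+ cells of the CD4-Cre set (722 to 1370 against 3440 to 5948 CPM) and higher in those of the CD4-CreERT2 set.

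The tumors differed among themselves. Across genes, ranks of levels correlated at 0.966 to 0.980 between controls, at 0.921 to 0.953 between VM388, VM58 and VM645-tumor, and at 0.885 to 0.909 between VM98 and these 3. VM98 correlated at 0.927 to 0.929 with the controls, and the other tumors at 0.882 to 0.938, with VM388 at 0.916 to 0.932 and VM58 at 0.921 to 0.938. These are Spearman values over 17841 genes, which are not independent replicates. On the 250 genes that rose without VM98, the median log2 difference from the controls was 1.68 in VM388, 1.80 in VM58, 1.98 in VM645-tumor and 0.53 in VM98. On the 329 that fell it was -3.30, -3.09, -3.56 and -1.06. The first 3 tumors and the same 3 controls chose these genes, so the medians, that of VM98 included, are a description with no test. Apol9b, an apolipoprotein L family gene, stood at 26.8, 51.7 and 97.0 CPM in VM388, VM58 and VM645-tumor and had 1 count in VM98. Slco2b1, an organic anion transporter of macrophages, stood at 1.13 to 2.0 CPM in those tumors and at 35.4 CPM in VM98, within the control range of 18.6 to 40.9.

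Use of T cell receptor β V genes was uneven in some tumors. In the controls the leading Trbv gene held 12.7%, 15.2% and 10.5% of the Trbv counts of its library. In VM388, Trbv3 took 51.0% (95% Clopper-Pearson interval 50.3% to 51.8%, of 16957 counts), and in VM645-tumor Trbv12-1 took 37.8% (36.8% to 38.7%, of 10184) and Trbv12-2 30.2%. The Trbv12 genes are near-identical neighbours, so reads could be split between them. In VM58 Trbv19 led with 11.9%, within the control range. In VM98 Trbv13-2 led with 15.4% (14.7% to 16.2%), just above the highest control (14.7% to 15.8% in VM216), and these intervals overlap. The mean of the top share was 29.0% ± 18.6 in tumors (SD, n = 4) and 12.8% ± 2.38 in controls (n = 3), p = 0.229 by an exact two-sided permutation test. Without VM98 it was 33.6% ± 19.9 (n = 3), with an exact permutation p = 0.3. The difference of 16.2 percentage points fell to 8.89 without VM388 (exact permutation p = 0.4). The smallest p this permutation test can give is 0.0571 with 4 against 3 libraries and 0.1 with 3 against 3. None of these tests could therefore fall under 0.05, and no conclusion is drawn from them. The intervals cover counting error only, since amplified reads are not independent molecules.

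**Figure D5:**
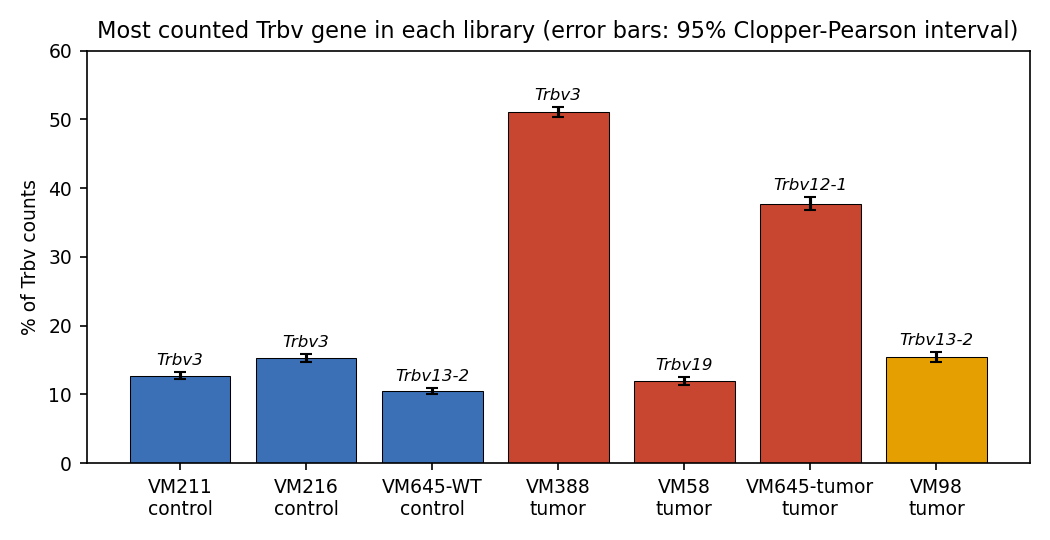
Percent of the Trbv counts of each library that fell on its leading Trbv gene, as bars from 0 with 95% Clopper-Pearson error bars (controls blue, tumors red, VM98 orange). VM388 (51.0%) and VM645-tumor (37.8%) stand above the controls (10.5% to 15.2%). VM58 (11.9%) lies within that range, and the error bar of VM98 (15.4%) overlaps that of the highest control.

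The spleens of these mice, other than VM645-tumor, gave a tumor effect measured in the same fit. This fit took 1 mean per group and did not pair the tissues of a mouse. The difference between the tumor effect in CD4+ cells and that in spleen was called for 0 of 19503 genes by edgeR. An unadjusted p under 0.05 was reached by 1428 genes. With the mouse as a block in the 12 libraries without VM645-tumor, 0 were higher and 0 lower. There, 1769 genes had an unadjusted p under 0.05, against 1205 without the block. By DESeq2, 15 were higher and 16 lower. Without both VM98 libraries edgeR called 1 higher and 1 lower. Slc40a1 was lower in tumor spleens too, at 11.1, 12.7 and 176 CPM in VM388, VM58 and VM98, though it did not pass there (-2.45 ± 0.93). Txk stood at 34.6 to 70.9 CPM in control spleens and at 11.1, 9.80 and 50.4 CPM in tumor spleens. Mki67 stood at 26.7 to 57.3 CPM in control spleens and at 233, 51.0 and 273 CPM in the spleens of VM388, VM58 and VM98. Of the genes called in CD4+ cells without VM98, 197 of 241 that rose (81.7%) were positive in CD4-CreERT2 cells and 153 of 318 that fell (48.1%) were negative, and 52.3% of all genes were positive there.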

How the data were processed

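Counts of reads per gene were deposited as raw whole numbers, neither scaled nor filtered in the tables. Per the submitters' processing notes, HISAT2 2.1.0 and HTSeq 0.5.4 were used with build mm10; the annotation release and strand setting are not given in the sources used here, so overlapping or near-identical genes are uncertain. Per the labels' protocols, polyA RNA (RNeasy Micro) was amplified as cDNA by SMART-Seq v4, with Nextera XT libraries and HiSeq sequencing.

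Rows for reads not assigned to a gene (13.4% to 23.7% outside genes) were left out. The 7 libraries were filtered with filterByExpr, scaled by TMM and tested with edgeR 4.0.16 (R 4.3.3), two-sided, with Benjamini-Hochberg adjustment; the standard error is the fold change over the square root of F. Levels are TMM-scaled CPM, scaled separately for the 7 CD4+ libraries, for the 13 CD4-Cre libraries (spleen values) and for the 11 CD4+ libraries (CD4-CreERT2 values), so levels set across sets compare differently scaled tables. CD4-CreERT2 tables were joined on 48211 shared symbols. Coordinates come from those tables (GRCm38). Alternatives used DESeq2 1.42.0 and limma 3.58.1; permutations and intervals used scipy 1.17.1. The methods were checked on simulated counts drawn with the same dispersion for every gene and library. The check therefore does not cover a library that stands apart, such as VM98. The members and the 42 lists (472 genes) were chosen with earlier results of these data known. Named genes are Mki67, Gata3, Cd4, Myo1f and Vav1, every gene called with 7 libraries, for each list up to 4 members that separate the groups, and the 8 highest and 8 lowest genes called without VM98 of mean log2 CPM of at least 3, and the 5 genes by which VM98 differs most from the other tumors in each direction; a part of these is printed, and list members called without VM98, Cd3e, Il13 and Ldha were added outside that rule. Mouse numbers pair CD4+ cells with spleen: deviations from group means correlated at 0.159 to 0.333 within mice.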

Additional observations from a re-analysis of the deposited data

Results flagged for a closer look

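In groups of 4 tumor libraries, the highest or lowest library was compared with the rest for 83 measures, and 12 lay far from the others. The threshold assumes normally distributed values, for which chance alone gives about 1 in 20. Levels in CPM, some at or near 0, need not meet this, so no conclusion is drawn from the number flagged. Of these, 3 are measures of the number of genes by which VM98 was set apart, and without them 9 of 80 lay far from the others. The 3 are its 34546 genes detected, the same 34546 with the other libraries thinned to its total, the smallest, and its 23828 genes with at least 5 counts. For VM98 the others were Klk1 at 3.81 CPM, Ighv1-84 at 0.0907 CPM, and the plasma cell list at a summed 8205 CPM. For VM58 they were Clec12a at 12.4 CPM, Hs3st2 at 0.0307 CPM, which is 1 count, and the BCL2 family list at 1062 CPM. For VM645-tumor they were Cd4 at 389 CPM and the stromal and endothelial list at 39.3 CPM. For VM388 it was Sh2d1b1 at 3.05 CPM. The tumor effect on Fpr1 differed between CD4-Cre and CD4-CreERT2 CD4+ cells by -7.49 on the log2 scale, by a test of the difference.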

How the results depend on the processing

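Leaving out libraries could hardly change a direction where groups do not overlap. The 28 genes kept their direction under all 16 alternatives. They were all called with RLE, other scaling, other filters, DESeq2 and without VM98, 25 with voom weights, 12 with a term for sex and 0 without both VM645 libraries. Genes called higher and lower with 7 libraries numbered 261 and 397 without the filter, 611 and 567 with DESeq2, 345 and 482 with voom weights, 3 and 12 with the sex term, 24 and 97 with all 13 CD4-Cre libraries and 0 and 0 without both VM645 libraries. Leaving out 1 library gave 0 to 250 higher and 0 to 329 lower. Without VM98 the counts were 651 and 845 without the filter, 1029 and 1120 with DESeq2, 45 and 100 with the sex term, and 533 and 514 with voom weights; leaving out a further library gave 6 to 415 higher and 20 to 520 lower, with 415 and 520 without VM645-tumor. The difference from spleen gave 1 and 1 genes without the filter, 15 and 16 with DESeq2, 1 and 1 without both VM98 libraries, and 0 and 0 with a replicate block for the mouse. Tumor and control mice could not be paired. The difference from CD4-CreERT2 gave 5 and 148 without the filter, 42 and 312 with DESeq2, 0 and 5 without VM98, and 0 to 2 higher and 0 to 17 lower on leaving out 1 library. Vav1 ran from -0.27 to 0.02 with 7 libraries on leaving out 1 library, and from -0.45 to 0.01 without VM98, above 0 when VM645-tumor was left out. The difference in genes detected, a description since it set VM98 apart, was 1098, and ran from -2005 without VM98 to 2276 without VM645-tumor. Without the filter more genes were tested; the cause of the other shifts was not tested.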
